A study of Mus musculus with 6 samples.

Results

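Antimicrobial peptides are short, mostly cationic proteins that epithelia secrete onto their surface, where they bind and disrupt the membranes of bacteria and fungi. The beta-defensins are one family of them, and each is a small peptide held in shape by bonds between pairs of cysteines. The lining of the tongue makes several beta-defensins, some constantly and some after contact with microbes or inflammatory cytokines. The cathelicidin Camp and the lectin Reg3g belong to other protein families with the same kind of activity.

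The genes described here were chosen by name, as the beta-defensin genes Defb1, Defb2, Defb3, Defb4, Defb5, Defb6 and Defb14 together with Camp and Reg3g. All 9 were found among the 23361 rows of the authors' table. Taste cells came from circumvallate and foliate papillae, the fields of taste buds at the back and sides of the tongue, of C57BL/6 mice aged 2 or 6 months. The papillae were loosened with enzymes and the cells were drawn off by suction, and cells of several mice, more of them at 2 than at 6 months, were pooled for each of 3 libraries per age. The labels give 2 and 6 months, while the series' own design text speaks of 3 and 6 months. The authors deposited 1 value per gene and age, estimated by them over the 3 libraries. Its unit, FPKM, is the number of sequenced fragments of a gene divided by transcript length and by the size of the library.

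Neither values per library nor the authors' own comparison of the ages were used here. So no spread between pools, test or n is given for any gene, and no difference is set against the spread between pools. Sequencing depth is unknown from FPKM. A change is the 6 month value of log2(FPKM + 1) less the 2 month value, a scale that understates the change of weakly expressed genes. A gene whose levels at both ages averaged 1 FPKM or more was counted as expressed, and an expressed gene with a change of at least 2-fold on this scale as past 2-fold. This is a size and not a test. In a pool of cells, fewer cells of a type and less RNA per cell cannot be told apart.

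Markers were read first to see which cells the pools held. Gnat3, the G protein of the type II taste cells that detect sweet, bitter and umami, was at 84.7 FPKM at 2 and 79.9 FPKM at 6 months. Pkd1l3, a marker of the type III cells that respond to sour, was at 26.2 and 33.5 FPKM, and Entpd2 of the glia-like type I cells at 66.1 and 57.7 FPKM. The keratin Krt5 of basal epithelial cells was higher than any of these, at 2180 and 1962 FPKM. Markers of taste cells and of basal epithelial cells were thus both present. Whether the basal keratins came from the taste buds or from epithelium around them was not tested, and the cell of origin of a defensin cannot be read from these pools.

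Of the 9 antimicrobial genes, 5 were expressed by this measure. These were Defb1, Defb3, Defb4, Defb6 and Defb14, and each of them was above 1 FPKM at both ages. Reg3g and Camp were measured below that level, and Defb2 and Defb5 were listed at 0 at both ages. Per length, the order at 2 months was Defb4, Defb14, Defb1, Defb3, Defb6, Reg3g and Camp. At 6 months Defb6 stood before Defb3 and Camp before Reg3g, and the other places in the order were the same. Without values per library it is not known which neighbours in this order differ beyond their spread.

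**Figure D1:**
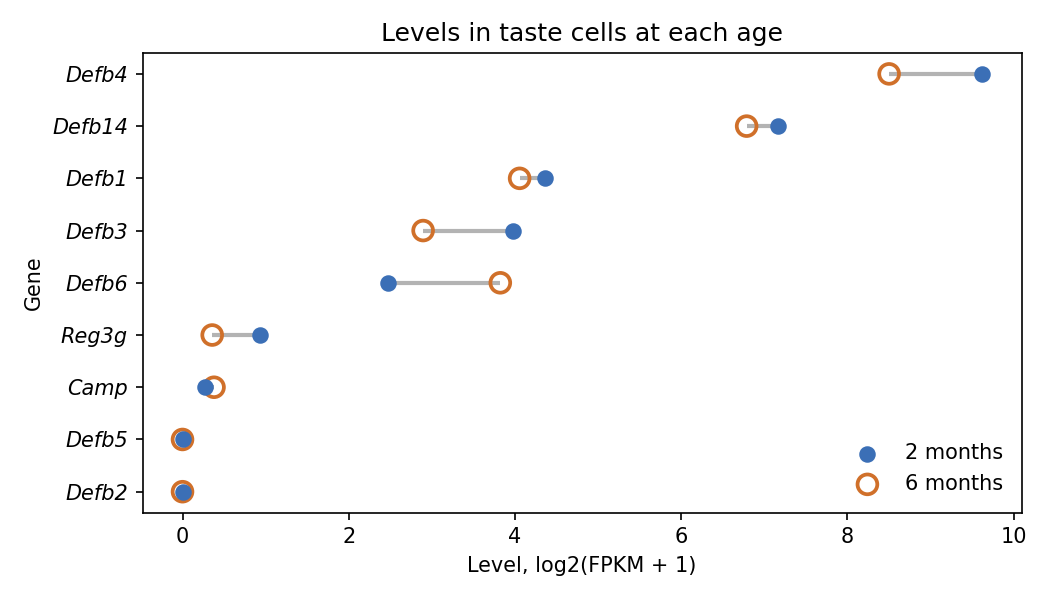
Level of each gene in taste cells at 2 months (filled points) and 6 months (open circles), as log2(FPKM + 1) on the horizontal axis, from 1 authors' value per age with no error bars. Defb4 and Defb3 lie lower at 6 months, Defb6 lies higher, and Defb2 and Defb5 are listed at 0.

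Among the 9 genes, only the 5 expressed ones could be counted as past 2-fold. Of these 5, Defb3 and Defb4 were at least 2-fold lower at 6 months and Defb6 was at least 2-fold higher. Over all 12652 expressed genes, 131 or 1.04% were at least 2-fold lower and 71 or 0.561% were at least 2-fold higher. Among these were 79 genes listed at 0 in 1 of the ages, several of them microRNA and small nucleolar RNA genes. Leaving such rows out left 83 lower genes, 0.66% of 12573, and 40 higher ones, 0.318%, and none of Defb3, Defb4 and Defb6 was among the rows left out. The counts of 2 and 1 among 5 expressed genes, of 9 chosen with earlier results known, are too small to call this a property of the group. As a description only, the median change was -0.37 over the 5 expressed members and -0.01 over the 12652 genes. Over all 9 genes it was -0.30, a value that takes Defb2 and Defb5, listed at 0 at both ages, as no change.

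**Figure D2:**
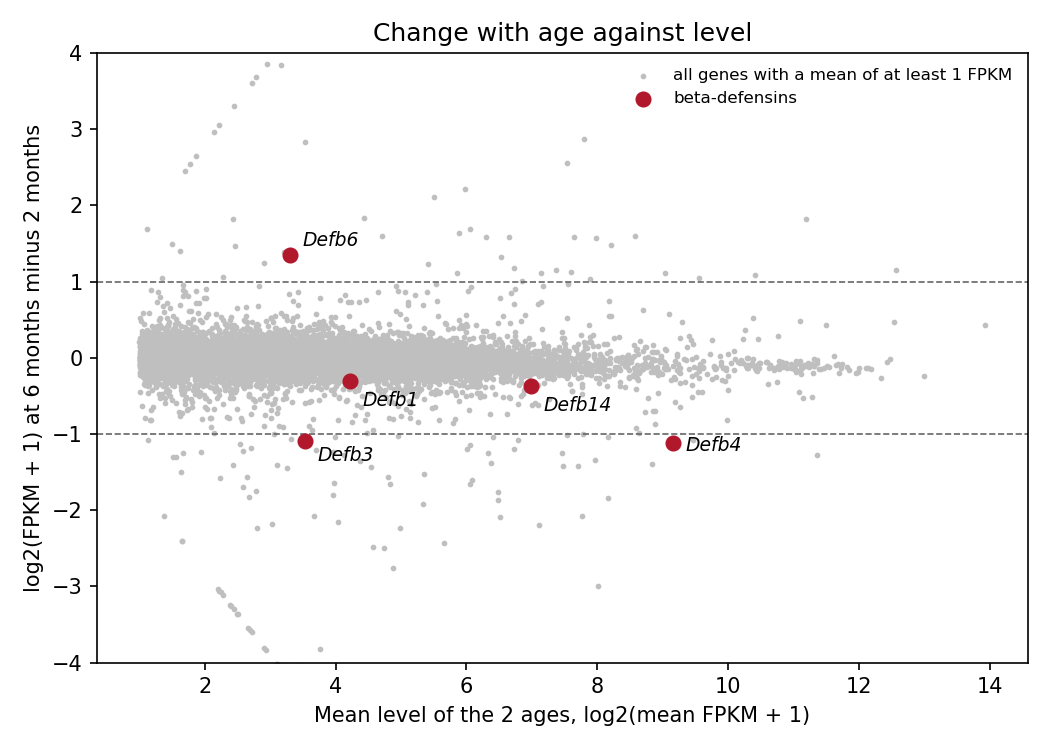
Change with age, log2(FPKM + 1) at 6 months minus 2 months, against the mean level, log2(mean FPKM + 1), for all 12652 expressed genes (grey) and the 5 beta-defensins among them (red). Dashed lines mark 2-fold, with Defb3 and Defb4 below and Defb6 above them, and 66 genes lie beyond the vertical axis limits of 4 in either direction.

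Defb4 encodes a beta-defensin known from the tongue, esophagus and trachea. It was the most abundant of the 9 genes per length, at 785 FPKM in 2 month taste cells and 362 FPKM in 6 month taste cells. Among all 23361 rows this level had rank 147 at 2 months and rank 248 at 6 months. The log2 change of Defb4 was -1.12, and its FPKM was 2.17 times as high at 2 as at 6 months. Of the 12652 genes, 118 had a more negative change.

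Defb3 encodes a beta-defensin that airway epithelium makes in response to bacterial infection. Its level was 14.8 FPKM at 2 and 6.44 FPKM at 6 months, which is a log2 change of -1.09. The FPKM of Defb4 was 53.1 times that of Defb3 at 2 months and 56.2 times at 6 months. The 2 genes thus lay far apart in level and changed by a similar factor.

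Defb6 encodes a beta-defensin described in skeletal muscle and also made in the esophagus, tongue and trachea. It had the opposite direction, at 4.55 FPKM at 2 and 13.2 FPKM at 6 months. The log2 change of Defb6 was 1.35, and 54 of the 12652 genes had a larger one. At 2 months Defb6 was the lowest of the 5 expressed defensins, with Defb3 at 3.25 times its level. At 6 months Defb6 was at 2.04 times the level of Defb3.

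Defb14 is the mouse counterpart of human beta-defensin 3, a peptide active against Gram-positive and Gram-negative bacteria that also attracts cells carrying the chemokine receptor Ccr6. It was next to Defb4 in abundance, at 142 FPKM at 2 and 110 FPKM at 6 months. The log2 change of Defb14 was -0.37, short of 2-fold. Its ranks among all rows were 613 and 767.

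Defb1 is the defensin that many epithelia make constantly, without a microbial stimulus. It was at 19.5 FPKM at 2 and 15.6 FPKM at 6 months, so the log2 change was -0.30, also short of 2-fold. Defb14 and Defb1 had the same direction as Defb3 and Defb4, and 53.7% of the 12652 genes had a change below 0. With the 6 month values scaled to the upper quartile of the 2 month values, 42.3% of all genes had a change below 0, and Defb14 and Defb1 were at -0.33 and -0.26.

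Reg3g encodes a secreted lectin that binds the wall of Gram-positive bacteria and is best known from the intestine, where interleukin 22 induces it. It was listed at 0.904 FPKM at 2 and 0.281 FPKM at 6 months. Camp encodes the cathelicidin of mouse, which neutrophils store in granules and keratinocytes can make after injury. It was listed at 0.203 FPKM and 0.301 FPKM. Both levels are low enough that their changes, -0.57 for Reg3g and 0.11 for Camp on the log2(FPKM + 1) scale, rest mainly on the pseudocount, and with a pseudocount of 0.1 FPKM they were -1.40 and 0.40.

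Defb2, a defensin of the airway that responds to bacterial lipopolysaccharide, and Defb5 were listed at 0 at both ages. A 0 in this table is not read as absence. The keratin Krt4 was listed at 7334 FPKM at 2 months and 0 at 6 months, Krt6a at 0 and 3391 FPKM, and Krt13, a main keratin of the tongue surface, at 0 in both. No fold is given for Defb2 or Defb5 for that reason.

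The summed level of the 9 genes was 967 FPKM at 2 and 507 FPKM at 6 months, a ratio of 1.91. Defb4 held 81.2% of this sum at 2 months and 71.3% at 6 months. The share of Defb14 was 14.7% and 21.6%, that of Defb1 2.02% and 3.08%, and that of Defb3 1.53% and 1.27%. Defb4 and Defb14 thus made up most of the sum at both ages. Defb6 went from 0.47% to 2.60% of the sum. Without Defb4 the sums were 182 and 145 FPKM, a ratio of 1.25, so that the difference in the sum between the ages was mostly that of Defb4.

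Mouse beta-defensin genes lie in clusters that arose by repeated duplication, and 5 of the 7 chosen here are close neighbours. In the GENCODE annotation of GRCm38, Defb14 (chr8:19194357-19195212), Defb4 (chr8:19198706-19201545), Defb6 (chr8:19225478-19228209), Defb5 (chr8:19247580-19250828) and Defb3 (chr8:19293360-19295291) follow each other on the plus strand. Each of these genes has 2 exons. Defb1 (chr8:21776599-21795185) and Defb2 (chr8:21839926-21843482) lie farther along the same chromosome, also on the plus strand and with 2 exons. Camp (chr9:109847379-109849617) and Reg3g (chr6:78466269-78468872) are on other chromosomes, on the minus strand.

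Level and direction differed between neighbours in the cluster. Defb14 and Defb4, the most abundant pair, are separated by 3.49 kb. Defb6, which was higher at 6 months, begins 23.9 kb beyond the end of Defb4. Between them lies Defa-ps12, annotated as a pseudogene, which was at 37.4 FPKM at 2 and 55.0 FPKM at 6 months, with a log2 change of 0.54. Beyond Defb6, Defb46 and Defb5 were listed at 0, and Defb3 begins 65.2 kb after Defb6 ends. Defb8, the last gene of this stretch, lies on the minus strand at chr8:19445769-19447606 and was at 1.12 FPKM at 2 and 0.226 FPKM at 6 months.

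**Figure D3:**
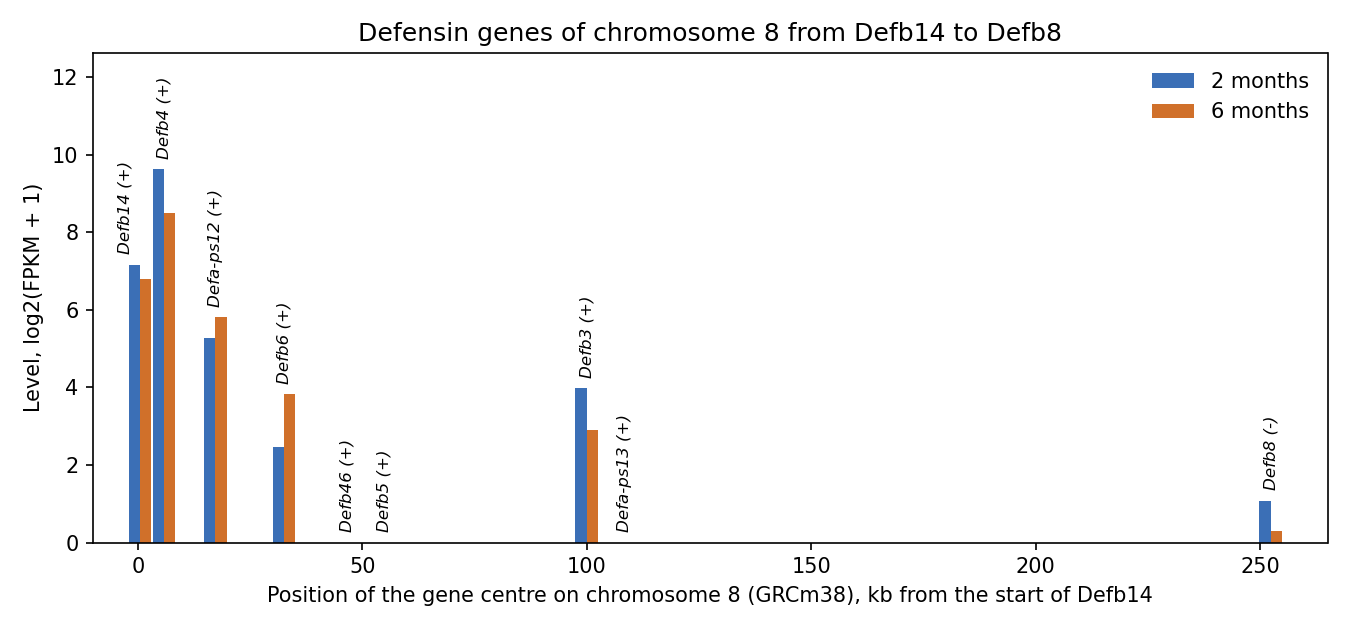
Levels of the 9 genes of the table between Defb14 and Defb8 on chromosome 8 of GRCm38, as log2(FPKM + 1) at 2 months (blue bars) and 6 months (orange bars), placed by gene centre in kb from the start of Defb14, with the strand in parentheses. Levels are highest at Defb14 and Defb4, Defa-ps12 and Defb6 are higher at 6 months, and Defb46, Defb5 and Defa-ps13 are listed at 0.

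Of the other 36 rows whose name starts with Defb, 33 were listed at 0 at both ages. Besides Defb8, Defb23 was at 0.0311 FPKM at 2 months and listed at 0 at 6 months, and Defb48 was listed at 0 at 2 months and at 0.0682 FPKM at 6 months. Of 17 rows whose name starts with Defa, which includes the alpha-defensins of intestinal Paneth cells, all but Defa-ps12 were listed at 0 at both ages. Defensin levels above 1 FPKM at both ages were thus listed for Defb4, Defb14, Defb1, Defb3, Defb6 and the pseudogene Defa-ps12.

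Transcripts of these genes are short, and FPKM divides by a length that is small for them. The GENCODE transcript has 454 bases for Defb4, 323 for Defb6, 275 for Defb3, 204 for Defb14 and 872 for Defb1. That of the pseudogene Defa-ps12 has 193. The models of Defb14 and Defb5 are nearly all coding sequence, so their annotated length may leave out transcribed bases. The authors' RefSeq models can differ from these lengths, which bears on levels between genes more than on the change of 1 gene with age.

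The duplicated genes also share sequence, and reads that fit several of them cannot be placed with certainty. The coding sequences of Defb4 and Defb6 were 78.6% identical, those of Defb3 and Defb4 75.9% and those of Defb3 and Defb6 71.9%. Defb3 and Defb5 were closest, at 85.6%, although Defb5 was listed at 0. The longest stretch shared without a mismatch was 72 bases between Defb4 and Defb8, 33 bases between Defb4 and each of Defb3 and Defb5, 26 bases between Defb4 and Defb6, and 12 bases between Defb3 and Defb6. The pseudogene Defa-ps12 shared 33 bases with Defb5 and 23 bases with each of Defb4 and Defb8. The values of Defb8, Defb3, Defb6 and Defa-ps12 are uncertain where reads of the far more abundant Defb4 could have been assigned to them, which was not tested. Defb14 shared at most 9 bases in a row with any other defensin compared, and Defb1 at most 15.

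The coding sequence of Defb14, whose change was short of 2-fold, was 58.3% identical to that of Defb4. It was 59.5% identical to that of Defb3 and 57.4% to that of Defb6. The coding sequences show how alike Defb3 and Defb4 are to Defb6, which changed in the opposite direction. Those of Defb4, Defb3, Defb6 and Defb14 are given 5′ to 3′ as annotated in GENCODE for GRCm38, on the plus strand of chromosome 8, with the cysteine codons TGT and TGC in capitals.
Defb4: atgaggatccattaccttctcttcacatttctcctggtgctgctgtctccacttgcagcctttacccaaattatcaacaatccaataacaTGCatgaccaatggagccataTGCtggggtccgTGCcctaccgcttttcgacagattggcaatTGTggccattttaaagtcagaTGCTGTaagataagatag
Defb3: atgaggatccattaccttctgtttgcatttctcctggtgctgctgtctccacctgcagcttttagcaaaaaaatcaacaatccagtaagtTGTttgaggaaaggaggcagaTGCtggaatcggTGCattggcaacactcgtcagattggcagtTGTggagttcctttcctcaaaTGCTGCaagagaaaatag
Defb6: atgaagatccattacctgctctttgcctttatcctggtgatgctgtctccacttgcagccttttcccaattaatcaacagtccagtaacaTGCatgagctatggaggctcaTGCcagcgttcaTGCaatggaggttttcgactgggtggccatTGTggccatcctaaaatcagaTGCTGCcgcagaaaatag
Defb14: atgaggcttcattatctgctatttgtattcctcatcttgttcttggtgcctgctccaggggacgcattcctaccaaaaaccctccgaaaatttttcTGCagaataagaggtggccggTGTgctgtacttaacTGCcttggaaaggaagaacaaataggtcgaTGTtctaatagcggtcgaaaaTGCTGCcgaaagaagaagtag

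In Defb4, Defb3 and Defb6 the 6 cysteine codons were separated by 6, 3, 9, 6 and 0 codons. Defb14 had the same pattern except for 4 codons in the place of the 3. The last 6 cysteine codons of Defb1 and Defb2 had the spacing of Defb14. Defb5 had 5 codons in the first place of the Defb4 pattern and a further cysteine codon before it. Counted from that further codon, and passing over the next cysteine codon, the spacing of Defb5 was that of Defb4. Defb8 had 5 cysteine codons in its annotated frame. Spacing of the last 6 cysteine codons therefore grouped Defb3, Defb4 and Defb6 together. Within that group the change with age was lower for a pair of genes and higher for the other.

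Promoter windows of Defb3, Defb5, Defb6, Camp and Reg3g, 5 of the 9 genes, were matched in the RefSeq table for GRCm38.p6. Defb1, Defb2, Defb4 and Defb14 had no match. The 250 bases before the RefSeq start were 74.0% identical between Defb3 and Defb6, 76.3% between Defb3 and Defb5 and 65.6% between Defb5 and Defb6, in global alignments. The window of Defb8, which was not expressed by the measure used here, was the closest to that of Defb3, at 86.7%. The same measure was 45.9% between Defb3 and Camp and 52.9% between Defb3 and Reg3g, which are unrelated genes. RefSeq starts can differ from the GENCODE coordinates given above. Inside the gene as GENCODE places it lie 1 base of the Defb3 window, 12 of the Defb5 window and 161 of the Camp window. The windows of Defb3 and Defb6 are shown because these genes changed in opposite directions, and that of Defb5 as the other gene of the 9 with a related window. Capitals mark the longest run that all 3 share, 24 bases, which the window of Defb8 also holds.
Defb3, chr8:19293111-19293360, plus strand: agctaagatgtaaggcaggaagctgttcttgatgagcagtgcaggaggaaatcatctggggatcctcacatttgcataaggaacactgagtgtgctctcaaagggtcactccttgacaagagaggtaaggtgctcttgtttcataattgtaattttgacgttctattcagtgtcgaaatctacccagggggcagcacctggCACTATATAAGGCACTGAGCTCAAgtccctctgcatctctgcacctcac
Defb6, chr8:19225228-19225477, plus strand: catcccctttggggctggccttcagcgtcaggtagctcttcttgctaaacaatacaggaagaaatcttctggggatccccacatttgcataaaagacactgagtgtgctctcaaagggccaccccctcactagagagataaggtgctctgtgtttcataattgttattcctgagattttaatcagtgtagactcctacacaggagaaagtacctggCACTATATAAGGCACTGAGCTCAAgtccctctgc
Defb5, chr8:19247342-19247591, plus strand: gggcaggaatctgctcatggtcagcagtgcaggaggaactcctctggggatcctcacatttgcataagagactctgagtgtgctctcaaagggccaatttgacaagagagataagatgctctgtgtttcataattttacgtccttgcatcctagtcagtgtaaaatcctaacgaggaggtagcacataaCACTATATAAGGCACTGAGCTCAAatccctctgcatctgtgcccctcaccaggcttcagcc

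That run holds the TATA-like letters TATATAAG, which begin 46 bases before the RefSeq start of Defb3, 31 before that of Defb6 and 58 before that of Defb5. The RefSeq and GENCODE starts of Defb3 and Defb5 differ. From the GENCODE starts the distance is 45 bases for Defb3, 31 for Defb6 and 46 for Defb5. On either strand, these letters were found in 1.01% of all 32851 windows of 300 bases. The octamer ATTTGCAT was also in all 3 windows and in 1.74% of all windows. These 2 motifs were picked after the sequences had been seen, and they do not overlap. The AP-1 motif TGANTCA, searched because the study concerns AP-1 factors, was in 7.81% of all windows and in none of the 5 matched ones. The NF-kB consensus was in 8.46% of all windows, and in those of Defb6, Camp and Reg3g but not those of Defb3 and Defb5. These shares are for windows of 300 bases, so a match may lie outside the 250 bases before the RefSeq start. A match is a description of letters and says nothing about binding.

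Other antimicrobial proteins were set beside the defensins, 39 in all. Some of them, Ltf included, are also on the neutrophil, macrophage or gland lists below. Of 22 that were expressed, 4 were at least 2-fold lower at 6 months, none was at least 2-fold higher and the median log2 change was -0.22. The shares over all expressed genes were 1.04% and 0.561%. A change below 0 was found for 20 of the 22, against 53.7% of all expressed genes. These 20 changes ranged from -1.66 to -0.02. With upper quartile scaling 42.3% of all expressed genes were below 0, and the 20 were not recounted with it. The 4 were Dmbt1, a mucosal scavenger receptor, at 302 and 113 FPKM, Bpifb1 at 28.6 and 10.6 FPKM, and Lyg1 and Slpi with log2 changes of -1.66 and -1.07. The study had already reported Lyg1 and Slpi as lower at 6 months from these same libraries. This list was chosen with earlier results known, so its counts are a description and not a property of the group. Ltf, the iron-binding lactoferrin and the most abundant, was at 2144 and 2016 FPKM. Lcn2, which withholds bacterial iron carriers, was at 16.8 and 31.4 FPKM, a change of 0.87 opposite to that of Defb3 and Defb4.

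Genes that induce defensins, process them or receive their signal were read next. The inducing genes were of cytokine, Toll-like receptor and NF-kB signalling, with others such as Vdr, Egfr, Cebpa and Hif1a. None of the 31 expressed inducing genes was past 2-fold, with a median of 0.01. Among them Il1a, an epithelial alarm cytokine, was at 65.9 and 46.6 FPKM, Il1f9 at 36.2 and 26.8 FPKM, the interleukin 22 receptor chain Il22ra1 at 1.05 and 1.94 FPKM, and Il17rc, the most abundant by its mean over both ages, at 56.1 and 59.4 FPKM. Of 6 expressed proteases that may process such peptides, Klk7, which cuts cathelicidin in skin, was past 2-fold, at 39.1 and 6.20 FPKM, and Klk8 was at 123 and 73.0 FPKM. Ccr6, the receptor that beta-defensins can engage, was at 0.226 and 0.230 FPKM, and none of 3 expressed receptors of such peptides was past 2-fold, the most abundant being Extl3 at 9.43 and 9.66 FPKM.

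Markers of cells that could carry these peptides were given for the whole of each list, and their part in the changes of the defensins was not tested. Beside Camp, 9 of 18 neutrophil genes were expressed, with a median change of -0.11 and Stfa2 past 2-fold at 1.96 and 0.399 FPKM. The sum over all 18 was 2326 and 2170 FPKM and was mostly Ltf. The neutrophil granule genes Elane, Ctsg and Fcnb were listed at 0, and Mpo was at 0.00558 and 0.0276 FPKM. Among the expressed genes of the list, Cxcr2 was at 4.77 and 4.47 FPKM, Csf3r at 3.40 and 3.60 FPKM and Itgam at 4.32 and 4.38 FPKM. Whether neutrophils were in the pools is not read from these values. Beside Defb6, all 6 expressed skeletal muscle genes of 8 were higher at 6 months, with a median of 0.78. Of all 12652 expressed genes, 5854 were higher, and with upper quartile scaling 42.3% were lower. The sum over all 8 muscle genes was 13.0 and 26.0 FPKM. Tnnc2 was past 2-fold, at 2.14 and 5.57 FPKM, and the myoglobin gene Mb was at 1.82 and 4.28 FPKM. Acta1, Tnnt3 and Ckm were 2.09, 2.09 and 2.07 times as high at 6 as at 2 months in plain FPKM. The number of muscle genes at least 2-fold higher was 4 with a pseudocount of 0.1 FPKM, against 90 of all 12652 expressed genes. No muscle gene had a mean of 5 FPKM. The muscle gene with the highest mean over both ages, Mylpf, was at 3.76 and 5.25 FPKM, and the fast myosin Myh4 was at 0.216 and 0.293 FPKM.

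Beside Defb3 and Defb4, 8 of 10 genes of suprabasal keratinocytes, the upper layers of the epithelium, were expressed, with a median change of -0.58. At 6 months 6 were lower and 2 higher, against 53.7% of all expressed genes lower. Krt4 was among the 6 and Krt6a among the 2. The sums over all 10, 10498 and 5676 FPKM, rest on the zeros of Krt4 and Krt6a, the 2 genes of the list listed at 0 in 1 age. Besides Krt4 and Krt6a, Krt10 was past 2-fold, at 150 and 70.5 FPKM, and the transglutaminase gene Tgm3 was at 828 and 860 FPKM. The 13 genes of von Ebner and salivary glands summed to 159 and 74.0 FPKM, and of the 7 expressed ones, with a median of -0.45, Lipf was past 2-fold at 83.7 and 14.7 FPKM. Without Lipf the sums over the whole gland list were 75.7 and 59.3 FPKM, a ratio of 1.28 against 2.15 with it, and Dcpp2 was higher at 6 months, at 1.45 and 3.28 FPKM. The 7 genes of basal keratinocytes had a median of 0.00 and sums of 4705 and 4689 FPKM. Whether Defb3 and Defb4 are made in these layers or glands was not tested.

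The remaining lists held no gene past 2-fold. Median changes were -0.21 for 2 expressed type I taste genes, 0.06 for 8 type II genes with Gng13 the most abundant at 148 and 126 FPKM, 0.17 for 7 type III genes and 0.03 for 7 macrophage and dendritic genes, of which Lyz2 was the most abundant at 293 and 254 FPKM. None of 9 lymphocyte genes was expressed. The median was -0.32 for 2 expressed fibroblast genes, with Dcn at 42.0 and 27.3 FPKM, and -0.03 for 2 expressed Paneth and intestinal genes, with Vil1 at 23.7 FPKM at 2 months and a change of -0.17, and the Defa genes of that list at 0. Tek, the 1 expressed endothelial gene, was at 1.57 and 1.55 FPKM, a change of -0.01.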

How the data were processed

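RNA of pooled taste cells was selected for poly(A), made into libraries with a kit not described as keeping strand, and sequenced. The authors mapped reads to GRCm38/mm10 with TopHat 2.0.7, quantified RefSeq genes with Cufflinks 2.1.1 and deposited 1 FPKM value per gene and age, estimated over 3 libraries. Cufflinks assigns reads in fractions, so depth cannot be read from the values. The deposited p-value column holds the authors' own comparison and was not used. Gene names that a spreadsheet had turned into dates were not resolved.

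Changes used a pseudocount of 1 FPKM and a mean of at least 1 FPKM. Members and gene lists were chosen with earlier results of these data known. Named genes were the 9 members, defensin rows with a mean of at least 1 FPKM, and of each list genes past 2-fold and the most abundant gene by its mean over both ages. The rule also took the 2 largest changes in each direction, which are given only in part. Acta1, Tnnt3, Ckm, Ccr6, Cxcr2, Gnat3, Mpo, Myh4, other defensin rows and genes listed at 0 were named beyond this rule, after their values were seen. Symbols were also matched through RefSeq synonyms, and 7 list names had no row of their own, 1 of which, Defa24, shares a row with another gene, listed at 0. Alternatives were a pseudocount of 0.1 FPKM, upper quartile scaling, leaving the filter out, a minimum mean of 5 FPKM, 1.5-fold, presence from 0.1 FPKM, the sum without Defb4 and, added after seeing the data, leaving out rows at 0 in 1 age.

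Sequences were aligned globally with a match of 1, a mismatch of -1, a gap opening of -2 and an extension of -0.5, and identity was taken over all alignment columns. Python 3.11.15, numpy 2.4.6, pandas 2.3.3, biopython 1.88 and matplotlib 3.10.9 were used.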

Additional observations from a re-analysis of the deposited data

How the results depend on the processing

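No paired analysis was possible because the values used were 1 per age and none per library, and leaving out single replicates was not run for the same reason. Under each of 6 alternatives, 2 of the 9 genes were past the fold used lower and 1 higher, the fold being 2 except in the alternative of 1.5-fold. The 14 recomputed changes of single genes all had the direction given. The median change of the 9 genes was -0.32 with a pseudocount of 0.1 FPKM and -0.26 with upper quartile scaling, which moved the median of all genes by 0.04, from -0.01 to 0.03. The ratio of the summed FPKM, 1.91, was 1.85 with upper quartile scaling and 1.25 without Defb4. With a pseudocount of 0.1 FPKM, 151 of all expressed genes were at least 2-fold lower and 90 at least 2-fold higher. At 1.5-fold, 217 genes were lower and 133 higher, and without rows at 0 in 1 age, an alternative chosen after seeing the data, 83 were lower and 40 higher. The counts at 1.5-fold and without rows at 0 in 1 age follow from the rule itself. From 0.1 FPKM, 7 genes counted as present in both ages, against 5 from 1 FPKM. Of 92 list counts, most set 0 against 0, which was taken as the same, and 89 were within 1.5 times. The others were, with a pseudocount of 0.1 FPKM, the muscle list, 4 higher, and the gland list, 1 higher, and the neutrophil list at a minimum mean of 5 FPKM, 0 lower, since that filter removed Stfa2. It left no gene of the muscle and endothelial lists, which gave no count there, and the lymphocyte list had no expressed gene to count. Depth is unknown, so the precision of low values such as Reg3g and Camp cannot be given.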
